A study of Homo sapiens with 6 samples.

Results

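Chemokines are small secreted proteins that draw leukocytes into tissue by binding G protein-coupled receptors. In inflamed epidermis the keratinocytes are themselves a source: CXCL1, CXCL2, CXCL3 and CXCL8 act on CXCR2 and recruit neutrophils, CXCL10 and CXCL11 act on CXCR3 of activated T cells, and CCL20 attracts CCR6-bearing cells such as Th17 cells. Many of these genes are switched on through NF-κB, which acts downstream of TNF-α, IL-1α and IL-17A, and CXCL10 and CXCL11 also respond to interferons.

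The transcripts of 10 chemokine genes were followed in Ker-CT, an immortalised human keratinocyte line. The genes were CXCL1, CXCL2, CXCL3, CXCL8, CXCL10, CXCL11, CXCL14, CXCL16, CCL5 and CCL20, taken by name from a deposited table of 58302 gene entries, and 9 of the 10 held enough counts to be tested. The 6 RNA-seq libraries were 3 from cells given siRNA against KMT2C (siKMT2C), a histone H3 lysine 4 methyltransferase, and 3 from cells given control siRNA (siNC). Both groups were labelled as treated for 24 h with M5, a mix of TNF-α, IL-1α, oncostatin M, IL-17A and IL-22 at 10 ng/ml each that serves as a culture model of psoriasis. Because every library carried M5, no value below measures induction by the cytokines. All libraries came from 1 cell line, and the labels do not say whether replicates were separate cultures, so p-values measure the spread between these libraries, which may be technical.

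The libraries held 14409277 to 17539519 counts, so that 1 CPM (counts scaled to a common library size) stood for 14.4 to 17.8 counts. KMT2C was at 32.0, 30.8 and 27.3 CPM in siKMT2C and at 87.9, 82.0 and 72.6 CPM in siNC, so the siRNA target was lower in every siKMT2C library. The 8 keratinocyte markers were all detected, with summed levels of 13437 to 18274 CPM in siKMT2C and 13112 to 20337 CPM in siNC. The T cell markers CD3D, CD3E, CD3G, CD2 and TRAC had 0 counts, as had PTPRC, the pan-leukocyte marker. Of 6 myeloid markers 4 were detected, chiefly CD14, with sums of 0.183 to 0.578 CPM in siKMT2C and 1.37 to 1.52 CPM in siNC, and the 6 fibroblast markers, all detected and chiefly COL1A1, had sums of 13.2 to 17.3 against 20.4 to 30.4 CPM. Both sums were lower in siKMT2C with no overlap between groups, and their part in the chemokine values was not tested.

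Letters of the kind of site through which NF-κB is known to act were found in the promoters of 7 of the 10 genes. They are shown because they occur both in CXCL1, the one chemokine that edgeR called, and in others that were not called. RefSeq promoter windows on GRCh38.p14, from 250 bases before to 50 bases after the annotated start, were matched for 8 of the 10 genes, CXCL16 and CCL5 being the other 2. The letters GGNNNTTCC were searched on both strands, and matches can overlap their own reverse complement. They occurred in 7 of the 8 windows, all but that of CXCL14, and in 20.1% of all 35116 promoter windows. Below, 1 match per gene is given 5′ to 3′ on the gene's strand, with the matching bases in capitals.
CXCL1: ggaactccgGGAATTTCCctggcccgg
CXCL2: ggagctccgGGAATTTCCctggcccgg
CXCL3: ggagctccgGGAATTTCCctggcccgg
CXCL8: gcaaatcgtGGAATTTCCtctgacata
CXCL10: ggagcagagGGAAATTCCgtaacttgg
CXCL11: ctcaaagagGGAAATTCCtgtgccata
CCL20: gatcaatggGGAAAACCCcatgtggca

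CXCL2 and CXCL3 held the same 27 letters around this match, and CXCL1 differed from them only by an a for a g in the flank. CXCL8 shared the GGAATTTCC core with other flanks. The matches began at position -78 from the start in CXCL1 (chr4:73869306-73869332, plus strand), -77 in CXCL2 (chr4:74099255-74099281, minus strand) and -78 in CXCL3 (chr4:74038750-74038776, minus strand). They began at -91 in CXCL8 (chr4:73740469-73740495, plus strand), -176 in CXCL10 (chr4:76023656-76023682, minus strand) and -75 in CXCL11 (chr4:76036128-76036154, minus strand). In CCL20 (chr2:227813754-227813780, plus strand) the match began at -79 and read on the reverse strand. The longest run of bases shared by 2 of these promoters was 42 between CXCL1 and CXCL2 and 37 between CXCL2 and CXCL3, against 9 between CXCL1 and CXCL8. The letters GAAANNGAA, part of the interferon-response element, occurred in 3 of the 8 windows (8.11% of all promoters), those of CXCL2, CXCL3 and CXCL10; the match of CXCL10, the interferon-responsive gene of the 3, is shown.
CXCL10: catgttttgGAAAGTGAAacctaattc

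This match began at -221 (chr4:76023701-76023727, minus strand). The AP-1-type letters TGANTCA occurred in the windows of CXCL8, CXCL11 and CXCL14, against 7.71% of all promoters. A match describes letters in a window and shows no binding.

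The chemokine transcripts ranged from above the median of the tested genes (CXCL1, CCL20 and CXCL2) down to the limit of detection. Levels of different genes are compared here per length, as the deposited FPKM (fragments scaled to gene length and library depth). In siNC the means ran from 5.22 ± 0.439 FPKM for CXCL1 (SD, n = 3) down to 0.0307 ± 0.0297 FPKM for CXCL14. Among the tested genes, ranked by mean FPKM over all libraries, CXCL1 stood at percentile 72.9, CCL20 at 55.6, CXCL2 at 53.0 and CXCL16 at 46.1. The others lay lower, CXCL10 at percentile 28.5, CXCL8 at 26.2, CXCL3 at 16.1, CXCL11 at 13.4 and CCL5 at 9.44. For scale, KRT14, a basal keratin, had a mean of 1644 FPKM.

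In siNC the order was CXCL1, CCL20, CXCL16, CXCL2, CXCL10, CXCL8, CXCL11, CXCL3, CCL5 and CXCL14. The ranges of neighbours overlapped except between CCL20 and CXCL16, between CXCL2 and CXCL10, and between CCL5 and CXCL14. In siKMT2C the order was CXCL1, CXCL2, CCL20, CXCL16, CXCL8, CXCL10, CXCL3, CXCL11, CCL5 and CXCL14, and the first 5 were separated from one another with no overlap. CXCL1, at 9.55 ± 0.167 FPKM, was then followed by CXCL2 at 3.74 ± 0.200 FPKM and CCL20 at 2.82 ± 0.283 FPKM.

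The order at the top rests on the gene lengths behind the FPKM. The length implied by the deposited values equalled the summed length of all distinct GENCODE 29 exons for 9 of the 10 chemokines, and within 0.1% for 92.0% of 12757 genes. In such a sum, exons that overlap are counted more than once. The implied length was 2836 bases for CCL20 against 1594 bases of exon union, and 1547 against 1296 bases for CXCL1. CCL20 was the exception of the 10, its summed distinct exons being 3233 bases. With the exon union as length, CCL20 led in siNC (8.51 ± 1.61 CPM per kilobase), ahead of CXCL1 (6.18 ± 0.540) and CXCL16 (5.80 ± 0.703), while CXCL1 led in siKMT2C (11.5 CPM per kilobase) under either length. Changes of a single gene between groups do not depend on the length, whereas sums and shares over genes do.

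**Figure D1:**
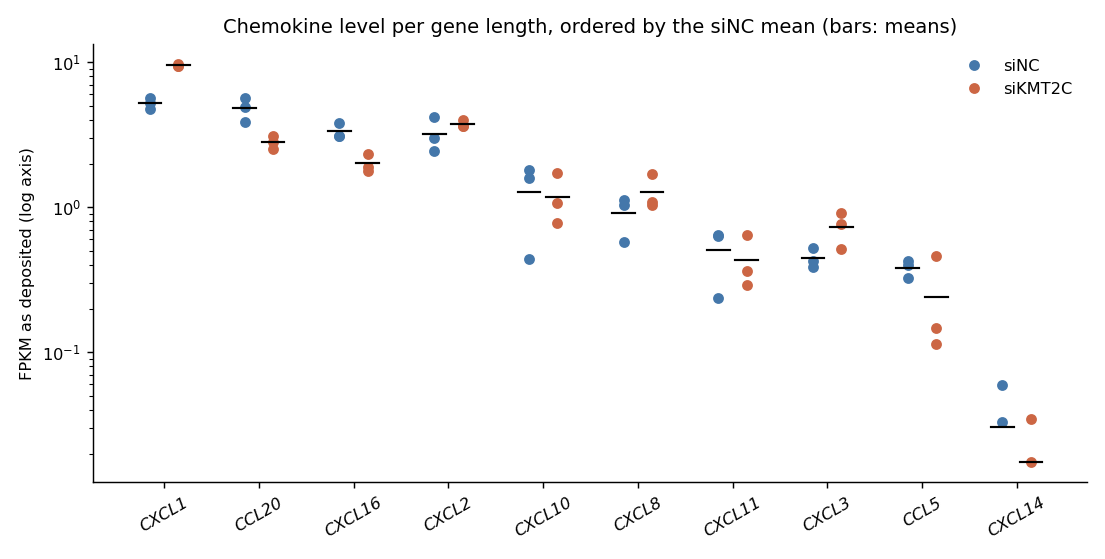
Deposited FPKM (log axis) of each chemokine in the 3 siNC and 3 siKMT2C libraries, genes ordered by their siNC mean, with bars at the means; libraries at 0 (CXCL14) are not drawn. CXCL1 and CCL20 lie side by side in siNC (5.22 and 4.82 FPKM) and apart in siKMT2C (9.55 and 2.82 FPKM).

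With KMT2C siRNA, CXCL1 rose and was the only chemokine of the 10 to pass the test, while CXCL16 and CCL20 were lower in every siKMT2C library without passing it. The called share was 1 of 9 tested chemokines, all upward, against 1.5% of the 15063 genes tested in either direction and 0.69% upward (edgeR quasi-likelihood test at a Benjamini-Hochberg adjusted p under 0.05). None of the 9 was called lower, against 0.81% of all genes, and limma-voom, which called 1.42% of genes, likewise called CXCL1 alone. The groups did not overlap in 3 of the 9, against 24.1% of all genes tested, and 4 of the 9 had an unadjusted p under 0.05, against 16.9%. The log2 fold changes had a median of -0.08 and a median size of 0.63, beside -0.0025 and 0.23 over all genes tested. These medians are the values of CXCL10 (141 counts over 6 libraries, SE 0.53) and CCL5 (65 counts, SE 0.54). Genes of like count were not compared. In bulk RNA, a change in the number of cells that express a gene cannot be told apart from a change in RNA per cell.

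**Figure D2:**
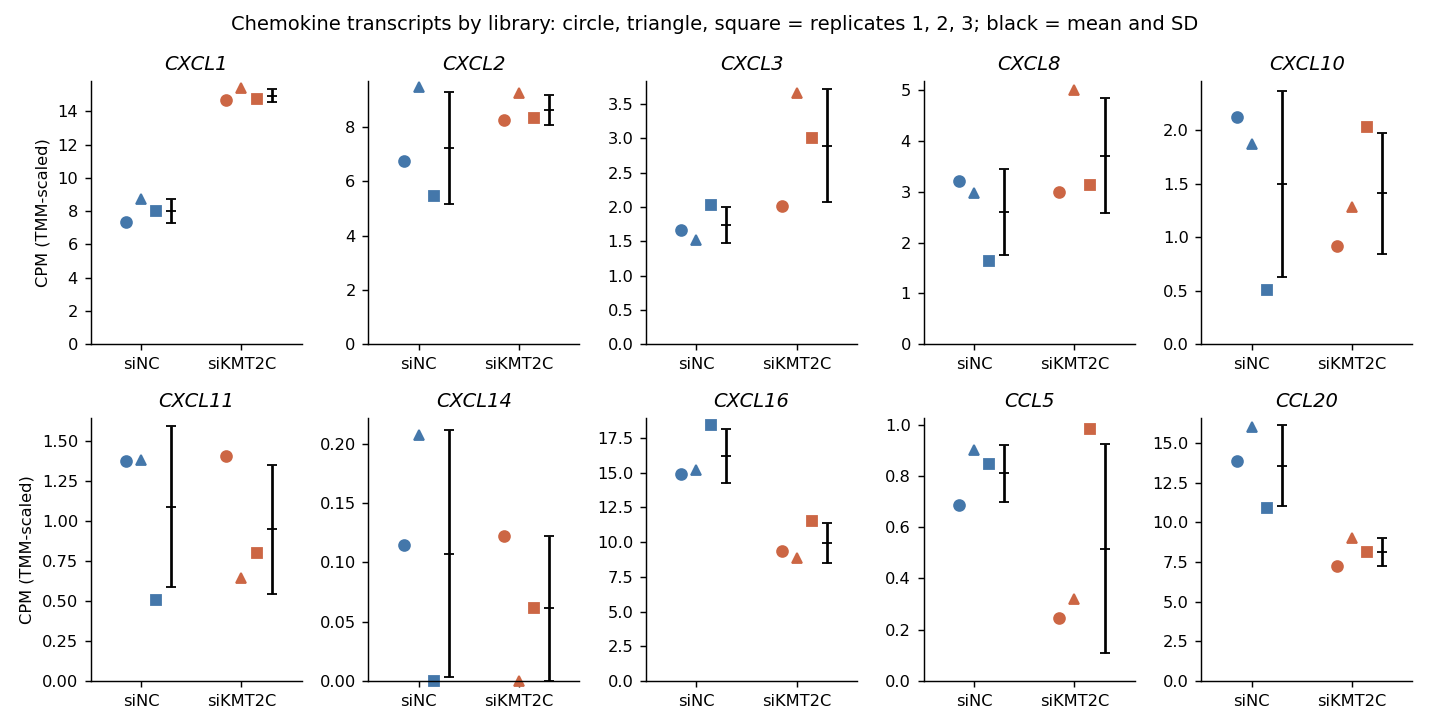
CPM of each of the 10 chemokines by library (circle, triangle and square for replicates 1, 2 and 3), with the mean and SD of each group in black; every vertical axis starts at 0 and has its own scale. The groups are separate in CXCL1, CXCL16 and CCL20 and overlap in the other 7 genes.

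CXCL1 (ENSG00000163739, chromosome 4, 73869393 to 73871242, GRCh38, GENCODE 29) encodes a CXCR2 ligand that attracts neutrophils. It had 14.7, 15.4 and 14.7 CPM in siKMT2C replicates 1 to 3, from 240 counts in each library, and 7.32, 8.72 and 8.00 CPM in siNC, from 128, 126 and 142 counts. All siKMT2C libraries lay above all siNC libraries. CXCL1 rose 1.87-fold (95% interval 1.45 to 2.39; log2 fold change 0.90, SE 0.16, n = 3 per group, edgeR adjusted p = 0.037). The exact two-sided permutation test gave p = 0.1, the smallest that 3 against 3 libraries can give. The adjusted p was 0.178, 0.148 and 0.107 without siKMT2C replicate 1, 2 or 3 and 0.0993 and 0.141 without siNC replicate 1 or 2, with log2 fold changes from 0.84 to 0.96, and 0.0355 without siNC replicate 3 (edgeR).

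CXCL2 and CXCL3 resemble CXCL1 in sequence, lie on the same chromosome and also act on CXCR2. On that chromosome CXCL8 lies nearer to CXCL1 than either of them. CXCL2 (ENSG00000081041, chromosome 4, 74097035 to 74099293) had 8.26, 9.25 and 8.35 CPM in siKMT2C and 6.75, 9.48 and 5.46 CPM in siNC. Its highest value was that of siNC replicate 2, so the groups overlapped, and the log2 fold change of 0.26 (SE 0.23, edgeR adjusted p = 0.634) left a fold between 0.828 and 1.72 possible. The CXCL2 value was 0.49 without siNC replicate 2 and 0.08 without siNC replicate 3. CXCL3 (ENSG00000163734, chromosome 4, 74036589 to 74038807) had 2.02, 3.66 and 3.01 CPM in siKMT2C and 1.66, 1.52 and 2.03 CPM in siNC. Only siKMT2C replicate 1 reached into the siNC range. The log2 fold change was 0.73 (SE 0.30), or 1.66-fold (95% interval 1.03 to 2.67). CXCL3 was not called (edgeR adjusted p = 0.264), and its log2 fold change ran from 0.53 to 0.94 with 1 library left out.

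Because these 3 messages resemble one another, shared reads were considered. Of the distinct 50-base words in GENCODE 29 transcripts of CXCL1, 4.81% also occur in another gene, namely CXCL2 or CXCL3, and the share was 12.5% for CXCL2 and 6.01% for CXCL3. Levels of the 3 genes are uncertain to the extent that such reads were split in counting. Summed over the 3, the level was 13.6, 14.6 and 13.9 FPKM in siKMT2C and 8.19, 10.2 and 8.18 FPKM in siNC. The sum too was separate between groups, but most of it was CXCL1, itself separate. The lengths behind the FPKM differ (1547, 2279 and 3922 bases for CXCL1, CXCL2 and CXCL3). The sum in FPKM therefore does not remove the uncertainty from shared reads, and a sum of counts was not taken. CXCL1 made up 69.6%, 66.6% and 68.3% of that sum in siKMT2C and 58.3%, 55.3% and 64.0% in siNC.

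CXCL8 (ENSG00000169429, chromosome 4, 73740506 to 73743716), which encodes interleukin-8 and is also a neutrophil attractant, was at a low level in both groups. It had 3.00, 5.01 and 3.13 CPM in siKMT2C and 3.20, 2.98 and 1.63 CPM in siNC. One library of each group stood apart, siKMT2C replicate 2 above and siNC replicate 3 below, and the other 4 lay close together. The log2 fold change was 0.51 (SE 0.34, edgeR adjusted p = 0.495), with a fold between 0.834 and 2.44, and it was 0.24 without siKMT2C replicate 2. CXCL1, CXCL2, CXCL3 and CXCL8 thus had positive values, as had 7485 of the 15063 genes tested, and edgeR called CXCL1 alone of the 4.

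CCL20 (ENSG00000115009, chromosome 2, 227805739 to 227817564), the ligand of CCR6, had 7.22, 8.99 and 8.11 CPM in siKMT2C and 13.8, 16.0 and 10.9 CPM in siNC. Every siKMT2C library was below every siNC library, siNC replicate 3 being the nearest. The log2 fold change was -0.74 (SE 0.20), or 0.598-fold (95% interval 0.436 to 0.821), and it did not pass over all genes (edgeR adjusted p = 0.115; exact permutation p = 0.1). CCL20 passed without siNC replicate 3 (log2 fold change -0.89, edgeR adjusted p = 0.0408) and with DESeq2 (adjusted p = 0.0386). Over all genes, these settings called 620 of 15358 and 864 of 14182.

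CXCL16 (ENSG00000161921, chromosome 17, 4733526 to 4739922) is made as a membrane protein, from which the protease ADAM10 can release the soluble ligand of CXCR6. It had 9.36, 8.87 and 11.5 CPM in siKMT2C and 14.9, 15.2 and 18.5 CPM in siNC. The groups were separate, and in both of them replicate 3 was the highest. The log2 fold change was -0.71 (SE 0.18), or 0.612-fold (95% interval 0.459 to 0.816), which was not called in edgeR (adjusted p = 0.104; exact permutation p = 0.1) and was called by DESeq2 (adjusted p = 0.0245). DESeq2 called 6.09% of the genes it adjusted, and CXCL1, CXCL16 and CCL20 among the chemokines.

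Within each library the balance between CXCL1 and these 2 genes differed between groups. The FPKM ratio of CXCL1 to CCL20 was 3.73, 3.14 and 3.33 in siKMT2C and 0.970, 1.00 and 1.35 in siNC. That of CXCL1 to CXCL16 was 4.95, 5.49 and 4.03 in siKMT2C and 1.55, 1.81 and 1.37 in siNC. Neither ratio overlapped between the groups. That followed from the separation of CXCL1 upward and of CCL20 and CXCL16 downward, and is no further result. CXCL1 held 43.5% ± 2.11 of the summed FPKM of the 10 chemokines in siKMT2C and 26.1% ± 3.26 in siNC (SD, n = 3). That sum itself, at 22.0 ± 1.19 and 20.1 ± 2.60 FPKM, overlapped between groups. The shares, the sum and the size of the ratios depend on the lengths behind the FPKM. With the exon union as length, CXCL1 was below CCL20 in siNC (6.18 against 8.51 CPM per kilobase).

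**Figure D3:**
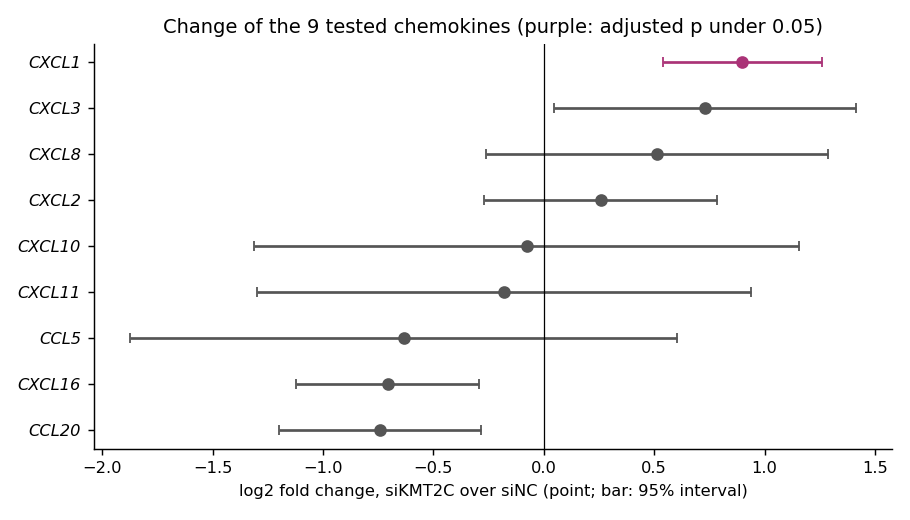
Log2 fold change of siKMT2C over siNC for the 9 tested chemokines, with 95% intervals from the edgeR fit; purple marks an adjusted p under 0.05. CXCL1 alone is purple at 0.90, and the intervals of CXCL10, CXCL11 and CCL5 reach at least 0.60 on either side of 0.

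The CXCR3 ligands showed no direction that held across libraries. CXCL10 (ENSG00000169245, chromosome 4, 76021117 to 76023497) had 0.917, 1.28 and 2.03 CPM in siKMT2C and 2.12, 1.87 and 0.507 CPM in siNC. Replicates 1 and 2 of siNC were above those of siKMT2C, and the libraries of replicate 3 stood the other way round. The log2 fold change of -0.08 (SE 0.53, edgeR adjusted p = 0.965) became -0.87 without replicate 3 of both groups (edgeR adjusted p = 0.253) and 0.28 without siNC replicate 1. CXCL11 (ENSG00000169248, chromosome 4, 76033682 to 76041415) had 1.41, 0.642 and 0.799 CPM in siKMT2C and 1.37, 1.38 and 0.507 CPM in siNC. Its groups overlapped fully, and the log2 fold change was -0.18 (SE 0.48, edgeR adjusted p = 0.894), with a fold between 0.406 and 1.91; it was 0.04 without siNC replicate 1.

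CCL5 (ENSG00000271503, chromosome 17, 35871491 to 35880793), an attractant of T cells and monocytes, had 4, 5 and 16 counts in siKMT2C (0.245, 0.321 and 0.983 CPM) and 12, 13 and 15 counts in siNC (0.687, 0.900 and 0.845 CPM). Its highest and its lowest values were both in siKMT2C. The log2 fold change was -0.63 (SE 0.54, edgeR adjusted p = 0.611) and moved with each siKMT2C library left out, to -0.30 without replicate 1, -0.39 without replicate 2 and -1.49 without replicate 3 (edgeR adjusted p = 0.244 for the last). Of the 50-base words of its transcripts, 13.9% occur in other genes. CXCL14 (ENSG00000145824, chromosome 5, 135570679 to 135579279), which resting epidermis is known to make, was at the limit of detection: 2, 0 and 1 counts in siKMT2C and 2, 3 and 0 in siNC. It was not tested, and a count of 0 allows up to 0.193 CPM in siKMT2C replicate 2 and 0.169 CPM in siNC replicate 3, for counting error only.

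**Figure D4:**
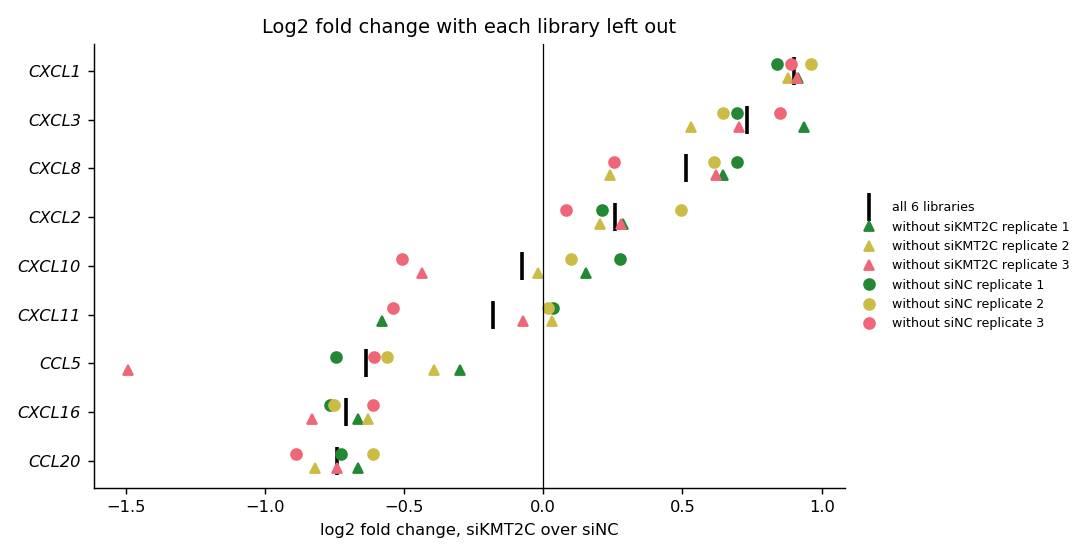
Log2 fold change of each tested chemokine with all 6 libraries (black bar) and with each library left out (triangles for siKMT2C, circles for siNC; green, yellow and red for replicates 1, 2 and 3). CXCL1 stays between 0.84 and 0.96, while CXCL10 spans -0.51 to 0.28 and CXCL11 -0.58 to 0.04.

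Of 36 further chemokine genes, 35 were matched in the table and 1 was tested. That gene was CCL28, a mucosal chemokine that binds CCR10, at 6.95 ± 0.993 CPM in siKMT2C and 8.59 ± 1.13 CPM in siNC (log2 fold change -0.31, SE 0.19, edgeR adjusted p = 0.476). CXCL6, another CXCR2 ligand, had 38 counts over the 6 libraries, and CCL27, a skin T cell attractant, had 11. The receptors of these ligands were near the limit of detection, and 2 of 23 chemokine receptor genes were tested. Of these, 0 were called by edgeR, DESeq2 or limma-voom, beside 1.5%, 6.09% and 1.42% of all genes. In edgeR 0 had an unadjusted p under 0.05, beside 16.9%. DESeq2 adjusted only 1 of the 2. With so few genes, a count of 0 shows no difference from other genes. ACKR3, a scavenging receptor, had 0.974 ± 0.222 against 1.57 ± 0.132 CPM in siNC (log2 fold change -0.68, SE 0.30). Its groups did not overlap, as in 24.1% of all genes tested. CCR10 had 0.494 against 0.937 CPM (-0.92, SE 0.50), and ACKR4 held 25 counts in all. CXCR2 had 7 counts over all libraries.

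Most genes known to carry cytokine signals to chemokine genes were expressed. In the 4 lists below, edgeR with all 6 libraries and no covariate called none of them, beside 1.5% of all genes tested. In lists of this size, a count of 0 shows no difference from other genes. With replicate number as a block edgeR called IL1RAP, IL22RA1, OSMR and IRF1, and 968 of 15063 genes in all. TNFRSF1B, with 9 counts, and IFNB1 and IFNL1, with 2 each, were not tested. Of 17 tested M5 receptors and adaptors, 6 had positive and 11 negative values, with a median of -0.20; the smallest p-values were those of IL22RA1, a subunit of the IL-22 receptor (-0.90, SE 0.24, edgeR adjusted p = 0.114), and RIPK1, a kinase of the TNF receptor complex (-0.42, SE 0.12, edgeR adjusted p = 0.142). Of 16 NF-κB and C/EBP factors, 9 were positive, with a median of 0.03. Foremost were TNFAIP3, which encodes the NF-κB inhibitor A20 (-0.30, SE 0.12, edgeR adjusted p = 0.241), and the kinase IKBKB (-0.30, SE 0.14, edgeR adjusted p = 0.316).

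Of 11 genes known to set the life of cytokine messages, 6 were positive with a median of 0.02, led by ZFP36L2, a decay factor (-0.33, SE 0.11, edgeR adjusted p = 0.189), and HNRNPD (0.31, SE 0.22). Of 13 tested genes of the interferon input, 2 were positive and 11 negative with a median of -0.23, led by the transcription factor IRF1 (-0.59, SE 0.14, edgeR adjusted p = 0.0915) and the receptor subunit IFNAR1 (-0.35, SE 0.16). In the order given, 4, 1, 1 and 1 members of these 4 lists had an unadjusted p under 0.05 in edgeR, beside 16.9% of all genes. DESeq2, at 6.09% of all genes, called IL22RA1 and IRF1, and limma-voom, at 1.42% of all genes, called 0. Without siNC replicate 3 edgeR called IL6ST, OSMR and BIRC3. In that setting it called 620 of 15358 genes, against 226 of 15063 with all libraries.

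Chemokines are held at the cell surface by heparan sulfate, and 1 of 11 tested genes of the cleavage and surface-binding list was called by edgeR, beside 1.5% of all genes. SDC4, a syndecan that carries heparan sulfate, rose from 198.5 ± 16.7 to 376.6 ± 37.2 CPM (log2 fold change 0.92, SE 0.13, edgeR adjusted p = 0.0218). SDC1, a second syndecan, was at 244.8 ± 72.7 CPM in siNC and 495.6 ± 87.1 CPM in siKMT2C and did not pass (1.02, SE 0.22, edgeR adjusted p = 0.0718). SDC1 was called by DESeq2 and by edgeR in 4 settings. These were no filter on low counts, replicate number as a block, without siNC replicate 3 and without replicate 3 of both groups. Over all genes, DESeq2 and these settings called 864 of 14182, 310 of 29808, 968 of 15063, 620 of 15358 and 648 of 15119. Of the 11 tested members of this list, 6 were positive and 5 negative, with a median of 0.22. The SDC4 call held without siNC replicate 3, where SDC1 and NDST1 were called as well, and was lost when any of the other 5 libraries was left out.

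**Figure D5:**
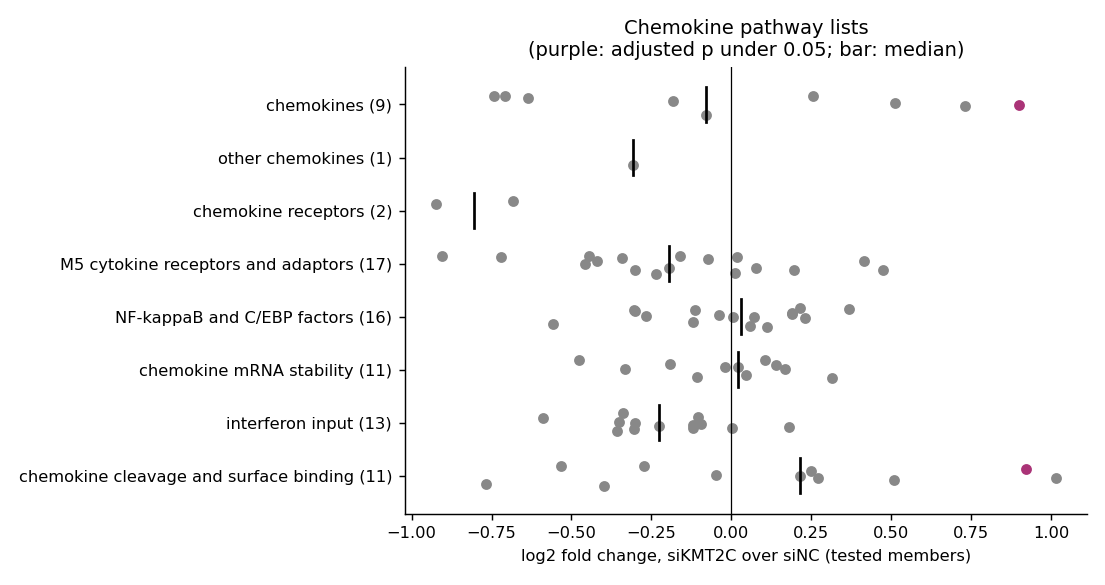
Log2 fold changes of siKMT2C over siNC for the tested members of each list (number in brackets), with a bar at the median; purple marks an adjusted p under 0.05 in edgeR. CXCL1 and SDC4 are the 2 purple points.

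The genes whose log2 CPM followed CXCL1 most closely over the 6 libraries, among 12854 compared, were DGKD, a diacylglycerol kinase (Pearson r = 0.998), RPL26L1, a ribosomal protein L26 paralog (r = 0.996), and NOP56, a nucleolar protein (r = 0.993). The group difference itself enters these values, and 189 genes had r above 0.95.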

How the data were processed

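RNA was measured in 6 libraries, and the authors deposited read counts per gene and FPKM in 1 table, per the file headers. The submitters' processing notes name CASAVA 1.8 and TopHat2 2.0.6, and a mouse build (mm10), although the table lists human Ensembl genes; the counting program and human build are not given in the sources used here. Counts were fitted with edgeR 4.0.16 in R 4.3.3 (filterByExpr, TMM, robust quasi-likelihood test, siKMT2C against siNC, no covariate), with p-values adjusted over the 15063 genes tested. The SE is the absolute log2 fold change over the root of F. DESeq2 1.42.0, limma-voom (limma 3.58.1), other scalings and filters, a replicate block and leaving out libraries were alternatives. Positions and transcripts are from GENCODE 29 on GRCh38, and promoters from RefSeq. The permutation test used log2(CPM + 0.1). The edgeR fit was first run on simulated counts drawn with the dispersions it had itself estimated. Such a run does not check its assumptions on the real libraries, and its recovery of planted changes is not reported here.

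Members and lists were chosen with earlier results of these data known. Besides the 10 chemokines and KMT2C, the text names from each list the called genes, the 2 with the smallest p and, for other chemokines and receptors, the 3 with the highest mean FPKM; markers and the 3 genes most like CXCL1 complete the rule. KRT14, CXCR2, IL6ST, OSMR, BIRC3, IL1RAP, NDST1, TNFRSF1B, IFNB1 and IFNL1 were named after their values were seen.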

Additional observations from a re-analysis of the deposited data

How the results depend on the processing

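With 6 other settings that used all libraries (RLE factors, library size alone, no filter, a CPM minimum of 1, limma-voom and DESeq2), CXCL1 was called in each, and the count of called chemokines was 1 except for 3 with DESeq2. Over all genes, 226 were called, 864 with DESeq2 and 968 with the replicate block, under which 3 chemokines were called (CXCL1, CXCL16 and CCL20). In the other lists the block also called IL1RAP, IL22RA1, OSMR, IRF1, SDC1 and SDC4. Whether replicate numbers paired the samples was not settled. Deviations of same-numbered libraries correlated at 0.0195, 0.107 and 0.389 for replicates 1, 2 and 3. The highest correlations of these siKMT2C libraries with a siNC library of another number were 0.0315, 0.318 and -0.131. Deviations were taken from means of only 3 libraries, so these values cannot decide it. With 1 library left out, 0 to 2 chemokines and 16 to 620 genes were called, and without replicate 3 of both groups, a setting chosen after seeing the data, 1 and 648. The sign turned for CXCL10 with limma-voom (0.10) and without siKMT2C replicate 1 (0.15), siNC replicate 1 (0.28) or siNC replicate 2 (0.10), and for CXCL11 without siKMT2C replicate 2 (0.03), siNC replicate 1 (0.04) or siNC replicate 2 (0.02); the cause was not tested. With 1 library left out, CXCL10 ran from -0.51 to 0.28 and CXCL11 from -0.58 to 0.0355, and CXCL1 from 0.84 to 0.96. Of the counts of called genes in the other lists, 80 lay within 1.5 times of the reported count and 18 did not. CCL5 gave no adjusted p in DESeq2 and no value at the CPM minimum. The exon-union length was also tried after seeing the data. Depth limits CXCL10, CXCL11, CCL5 and CXCL14, at 141, 99, 65 and 8 counts over 6 libraries.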

Other observations

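CXCL1 held exactly 240 counts in each of the 3 siKMT2C libraries. Of 3699 tested genes with a mean count of 100 to 400, it was the only one with the same count in all 3 siKMT2C libraries, and 0 had the same count in all 3 siNC libraries. No 2 libraries held identical counts over all genes, and the siKMT2C totals differed, so the CPM of CXCL1 ran from 14.7 to 15.4. In siNC its counts were 128, 126 and 142.

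The absolute order of the chemokines depends on how exon length was summed. For CXCL3, CXCL14, CXCL16 and CCL20 the length behind the deposited FPKM was 1.75 to 1.78 times the exon union, whereas for CXCL10 both were 1176 bases. The deposited FPKM of genes with many overlapping exons is therefore low relative to CXCL10 on the exon-union scale: CXCL3 is 8th in siNC by FPKM and 7th by CPM per kilobase of exon union, and CCL20 moves from 2nd to 1st.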
